A study of Huso dauricus x Acipenser schrenckii with 16 samples.

Results

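The glycosyltransferases of the sturgeon ovary were taken as every row of the gene table whose leading protein description names a sialyltransferase, fucosyltransferase, galactosyltransferase, N-acetylglucosaminyltransferase, N-acetylgalactosaminyltransferase, mannosyltransferase or oligosaccharyltransferase. There were 266 such rows among 41685. They comprised 40 sialyltransferases, 18 fucosyltransferases, 46 galactosyltransferases, 77 N-acetylglucosaminyltransferases, 57 N-acetylgalactosaminyltransferases, 26 mannosyltransferases and 2 rows of an oligosaccharyltransferase subunit, in 113 enzyme families. The tissue was ovary from adult females of a farmed hybrid, Huso dauricus mother by Acipenser schrenckii father, kept under normal breeding conditions. The labels describe 8 females from a farm population ranked as giving a high caviar yield and 8 from another ranked as giving a low yield, with 1 poly(A)-selected library for each female. Both groups are the same cross, and the labels give no treatment, age or genotype that differs between them. Each yield group is its own population, so an effect of yield and one of population cannot be told apart.

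Glycosyltransferases transfer a sugar from an activated donor to a protein, a lipid or a growing glycan. In N-glycosylation, mannosyltransferases of the endoplasmic reticulum build an oligosaccharide on the lipid dolichol, the oligosaccharyltransferase complex moves it to asparagine, and Golgi N-acetylglucosaminyl-, galactosyl-, fucosyl- and sialyltransferases branch, extend and cap it after trimming. O-linked glycans of the mucin type start with N-acetylgalactosamine on serine or threonine, and sialic acid or fucose usually ends a chain. The envelope proteins of the fish egg are glycoproteins, and most of these enzymes belong to the secretory equipment of cells that make glycoproteins.

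In the high-yield group, library 1 was near-identical to 5, 2 to 6, 3 to 7 and 4 to 8, with Spearman's rho from 0.973 to 0.981 within these 4 pairs and at most 0.960 between any other libraries. The number of separate high-yield females is therefore in doubt, and the libraries of a pair may come from 1 female. The counts of each pair were summed and counted as 1 sample, and 4 high-yield pairs were compared with 8 low-yield libraries. Values are TMM-scaled CPM unless FPKM is named, TMM being a scaling of library sizes, and a positive log2 fold change means more in high yield. Library totals ran from 37362125 to 60873931 counts, of which the glycosyltransferase rows took 0.270% to 0.471%. Low-yield 2 and 5 stood apart from all other samples in markers of connective tissue, vessels, smooth muscle, leukocytes and granulosa cells. Summed fibroblast and matrix markers ranged over 77.0 to 176 CPM in the high-yield pairs, against 780 CPM in low-yield 2, 1585 CPM in low-yield 5 and 97.5 to 197 CPM among the remaining low-yield samples. Endothelium markers summed to 49.9 CPM in low-yield 2 and 175 CPM in low-yield 5, against at most 32.0 CPM in other samples. Smooth muscle and pericyte markers summed to 191 and 2049 CPM there, against at most 101 CPM in other samples. Granulosa cell markers summed to 104 and 64.8 CPM there, against at most 49.3 CPM in other samples. All 9 of the 10 fibroblast and matrix genes that could be matched had counts, and the granulosa cell and oocyte markers of the labelled tissue were present in every sample. Oocyte sums ran from 30570 to 41363 CPM in high-yield pairs and from 16880 to 84025 CPM in low-yield libraries. Low-yield 2 had the lowest of these sums and low-yield 5 the highest, with 26124 to 48129 CPM among the remaining low-yield samples. In oocyte markers these 2 libraries thus lay at opposite ends. In bulk tissue, fewer cells of a type and less RNA per cell cannot be told apart.

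The glycosyltransferase rows spanned a range from nearly silent to abundant. All 266 had at least 1 count in some library, 184 had counts in all 16, and 113 averaged less than 1 FPKM, 82 from 1 to under 10 FPKM and 71 at least 10 FPKM. Of the rows, 223 passed the filter on low counts and were tested. The 43 that did not pass averaged at most 0.342 CPM. Fucosyltransferases lost the largest share to this filter, 9 of 18 rows, all of them copies of FUT2, FUT4 or FUT7, which make blood-group-type and Lewis-type ends of glycans. All 26 mannosyltransferase rows and both oligosaccharyltransferase rows passed it, while 9 of 40 sialyltransferase rows did not.

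FPKM levels could not be ranked over all rows. The length of a row was implied by the ratio of its CPM, here without TMM scaling, to its FPKM. It was under 0.3 kb for 20 of the 244 rows for which it could be computed (8.2%, against 12.7% of all genes). The median row stood at 2.54 kb. These 20 rows held 44.4% of the summed FPKM and 5.28% of the summed CPM of the glycosyltransferases, and they included 5 of the 10 highest FPKM values. MGAT2 (LOC117416573), which starts the second antenna of complex N-glycans, averaged 757 FPKM on an implied length of 0.127 kb. The same holds for PIGV (LOC117413991, 169 FPKM, 0.0718 kb), which adds a mannose to the GPI anchor, for the lactosamine-forming B4GALT3 (LOC131707059, 169 FPKM, 0.131 kb), for the fucosyltransferase FUT10 (LOC131718564, 135 FPKM, 0.131 kb) and for B3GNT3 (LOC117972057, 130 FPKM, 0.127 kb). Because FPKM divides by length, these values are not read as levels here. The limit of 0.3 kb was chosen after the values were seen.

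Among rows with an implied length of at least 1.5 kb, also a limit set after the values were seen, DPM1 (LOC117431356, 1.54 kb) had the highest FPKM. It makes dolichol-phosphate-mannose. The 2 most abundant of 4 rows of ST6GALNAC3 followed, an enzyme that puts sialic acid on N-acetylgalactosamine of O-glycans and gangliosides. DPM1 averaged 53.9 FPKM over the 16 libraries. These ST6GALNAC3 rows averaged 51.9 FPKM (LOC117421946) and 47.8 FPKM (LOC117396755). Next came MGAT4B (LOC117413264, 37.1 FPKM), an antenna-branching enzyme, and ALG2 (LOC117399927, 35 FPKM), which adds early mannoses to the dolichol-linked oligosaccharide. Then followed RFNG (LOC117423338, 34.7 FPKM), a fringe enzyme that extends O-fucose on Notch-type proteins, and ALG11 (LOC117406822, 33.1 FPKM), which acts after ALG2. DPM1 ranged in the high-yield pairs from 41.4 to 74.6 FPKM, against 31.2 to 79.97 FPKM in the low-yield libraries, a spread that takes in the means of the other 6 rows. The order by mean CPM, which is not divided by length, was another. There the mannosyltransferase alg1 was highest at 149 CPM, with an implied length of 10.8 kb and 14.2 FPKM. The ST6GALNAC3 rows came next, at 135 CPM (LOC117396755) and 129 CPM (LOC117421946), and DPM1 had 81.4 CPM.

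Summed over its rows, each class except the oligosaccharyltransferase subunit had overlapping groups. That subunit's 2 rows came to 167, 151, 185 and 163 CPM in high-yield pairs, against 51.0 to 133 CPM in low-yield libraries. All glycosyltransferases together came to 4209 ± 219 CPM in high-yield pairs (SD, n = 4) and 3913 ± 584 CPM in low-yield libraries (SD, n = 8). The lowest sums were those of low-yield 2 (2855 CPM) and low-yield 5 (3222 CPM). N-acetylglucosaminyltransferases made up 29.2% of the CPM, mannosyltransferases 21.5%, N-acetylgalactosaminyltransferases 17.6%, galactosyltransferases 13.8%, sialyltransferases 10.8%, fucosyltransferases 3.69% and the oligosaccharyltransferase subunit 3.26%. Fucosyltransferase sums differed between high-yield pairs, with 103 and 124 CPM in pairs 1+5 and 2+6 and with 223 and 179 CPM in pairs 3+7 and 4+8. They were 77.8 to 182 CPM in low-yield libraries.

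No glycosyltransferase passed an adjusted p under 0.05 in the test on summed pairs. With edgeR's quasi-likelihood test on summed pairs, 0 of 223 were called, as were 0 of 30009 genes in all (0%), and the smallest adjusted p of a glycosyltransferase was 0.574. At an unadjusted p under 0.05, 14 of 223 rows were higher (6.28%, against 5.18% of all genes) and 2 were lower (0.897%, against 3.35% of all genes). The share of higher rows is close to that of all genes. Positive log2 fold changes were 114 and negative ones 109, with a median of 0.02 against -0.02 over all genes. DESeq2 on the same sums called 1 glycosyltransferase of 266, a higher one, against 0.413% of all genes called in either direction and 0.138% called higher. For DESeq2 the 266 are all rows, with or without an adjusted p, while the shares of all genes are over genes with one. edgeR over 16 separate libraries called 0 of 204 (0.0579% of all genes), and limma on log2(FPKM + 1) called 0 of 153 (0% of all genes). DESeq2 over 16 libraries, which counts each near-identical library separately, called 5 of 266 glycosyltransferase rows higher and 2 lower. Of all genes it called 3.07% higher and 3.43% lower, 6.49% in all.

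At an unadjusted p under 0.05, edgeR over 16 libraries gave 19 higher (9.31%) and 11 lower (5.39%) of 204 glycosyltransferases, against 9.15% and 10.7% of all genes. DESeq2 on summed pairs gave 13 higher and 6 lower of 266 rows, against 4.32% and 4.8% of all genes. DESeq2 over 16 libraries gave 25 higher and 13 lower of 266 rows, against 7.77% and 8.97%. The limma fit gave 7 higher and 4 lower of 153, against 4.77% and 2.1%.

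**Figure D1:**
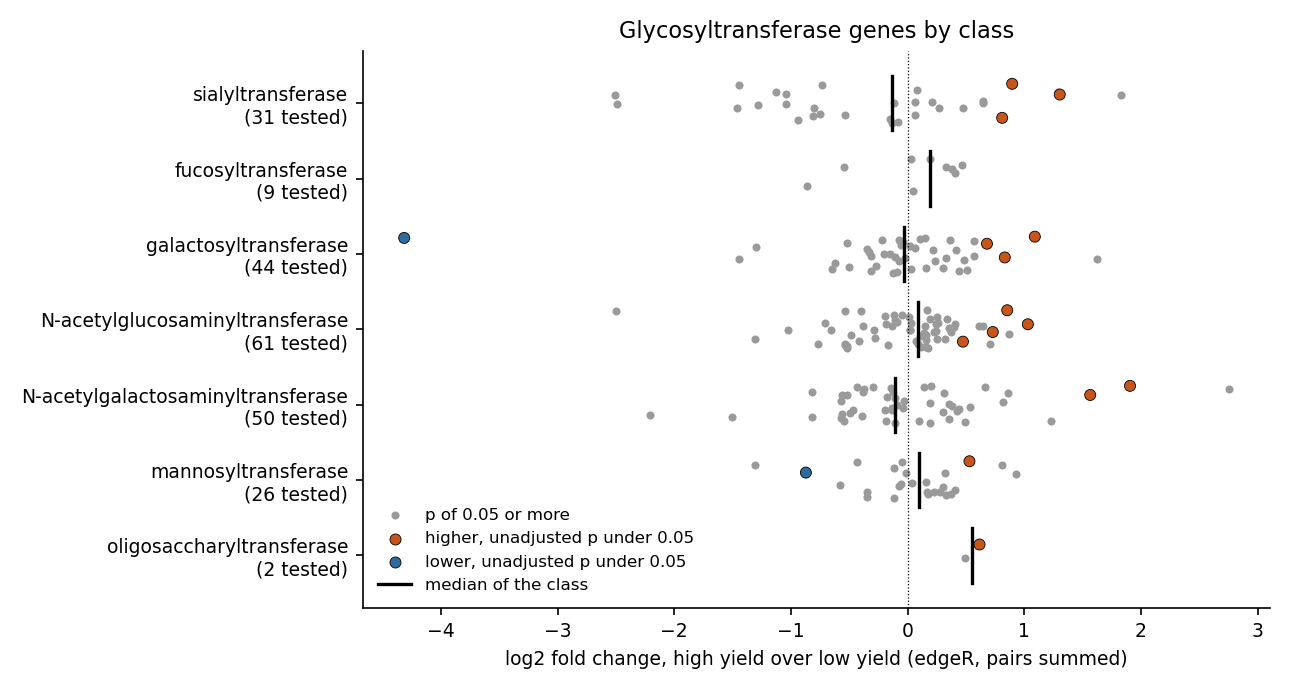
Log2 fold change, high yield over low yield, of each of the 223 tested glycosyltransferase rows (points) by class, with the class median (vertical bar). Coloured points are the 14 higher and 2 lower rows at an unadjusted p under 0.05, and the class medians lie between -0.14 and 0.55.

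By class the median log2 fold change was -0.14 for 31 sialyltransferases, 0.19 for 9 fucosyltransferases, -0.03 for 44 galactosyltransferases, 0.09 for 61 N-acetylglucosaminyltransferases, -0.11 for 50 N-acetylgalactosaminyltransferases, 0.10 for 26 mannosyltransferases and 0.55 for both oligosaccharyltransferase rows. The sialyltransferase median was 0.15 without low-yield 2 and 5, over the 22 rows that then passed the filter, so the sets of rows differ. Rows at an unadjusted p under 0.05 were 3 higher and 0 lower among sialyltransferases, 3 and 1 among galactosyltransferases, 4 and 0 among N-acetylglucosaminyltransferases, 2 and 0 among N-acetylgalactosaminyltransferases, 1 and 1 among mannosyltransferases, 1 and 0 for the oligosaccharyltransferase and 0 and 0 among fucosyltransferases. In the plot of fold changes by class, points lie on both sides of 0 in every class except the oligosaccharyltransferase.

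ST6GAL2, which attaches sialic acid in alpha-2,6 linkage to galactose at the end of a glycan, had the smallest p of all glycosyltransferases. Its main row (LOC117405923) stood at 55.2, 37.2, 33.9 and 34.6 CPM in the high-yield pairs, against 20.8, 19.6, 20.2, 27.2, 19.7, 25.7, 25.0 and 25.3 CPM in low-yield libraries 1 to 8. All 4 high-yield pairs lay above every low-yield library, and pair 1+5 was the highest. The log2 fold change was 0.81 (SE 0.18), with an unadjusted p of 0.000556 and an edgeR adjusted p of 0.574. DESeq2 on summed pairs gave 0.80 (SE 0.18, adjusted p = 0.00915), and edgeR over 16 libraries gave 0.78 (adjusted p = 0.0548). Leaving out each pair or low-yield library in turn gave 0.63 to 0.89, with unadjusted p from 0.000631 to 0.0047 in edgeR, and without low-yield 2 and 5 the value was 0.74. Earlier work on these data had already named this gene.

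The second ST6GAL2 row (LOC117407276) carried little of the family's transcript. It stood at 2.77, 5.73, 1.93 and 2.72 CPM in the high-yield pairs, against 1.20 to 2.56 CPM (median 1.79) in the low-yield libraries, and the groups overlapped. The log2 fold change was 0.90 (SE 0.40, unadjusted p = 0.0409, edgeR adjusted p = 0.581). The main row held 95.3% of the summed FPKM of both rows, from 90.4% to 97.2% in single libraries. For the related alpha-2,6-sialyltransferase ST6GAL1, row LOC117422944 stood at 3.10, 2.87, 14.8 and 13.1 CPM in the high-yield pairs, against 0.634 to 22.9 CPM in low-yield libraries (log2 fold change -0.80, unadjusted p = 0.249).

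OSTC, an accessory subunit that helps to couple the oligosaccharyltransferase to the protein channel of the endoplasmic reticulum, had 2 rows of similar level. LOC117408861 stood at 85.2, 89.3, 119 and 77.3 CPM in the high-yield pairs, against 62.2, 31.8, 56.8, 61.7, 67.1, 65.9, 62.7 and 75.7 CPM in low-yield libraries 1 to 8. Every pair lay above every low-yield library, by a narrow margin between pair 4+8 and low-yield 8. The log2 fold change was 0.62 (SE 0.21, unadjusted p = 0.0109, edgeR adjusted p = 0.574), and without pair 3+7 it was 0.48 with an unadjusted p of 0.0537. The other row (LOC117420938) stood at 82.0, 62.2, 65.8 and 85.7 CPM in high-yield pairs, against 19.2 to 74.0 CPM (median 57.8) in low-yield libraries, with overlap, a log2 fold change of 0.49 (SE 0.32) and an unadjusted p of 0.145. ST6GAL2 (LOC117405923) and OSTC (LOC117408861) were the 2 of 223 rows with every high-yield pair above every low-yield library, as 0.4% of all genes were, and 0 rows lay wholly below, as 0.237% of all genes did.

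**Figure D2:**
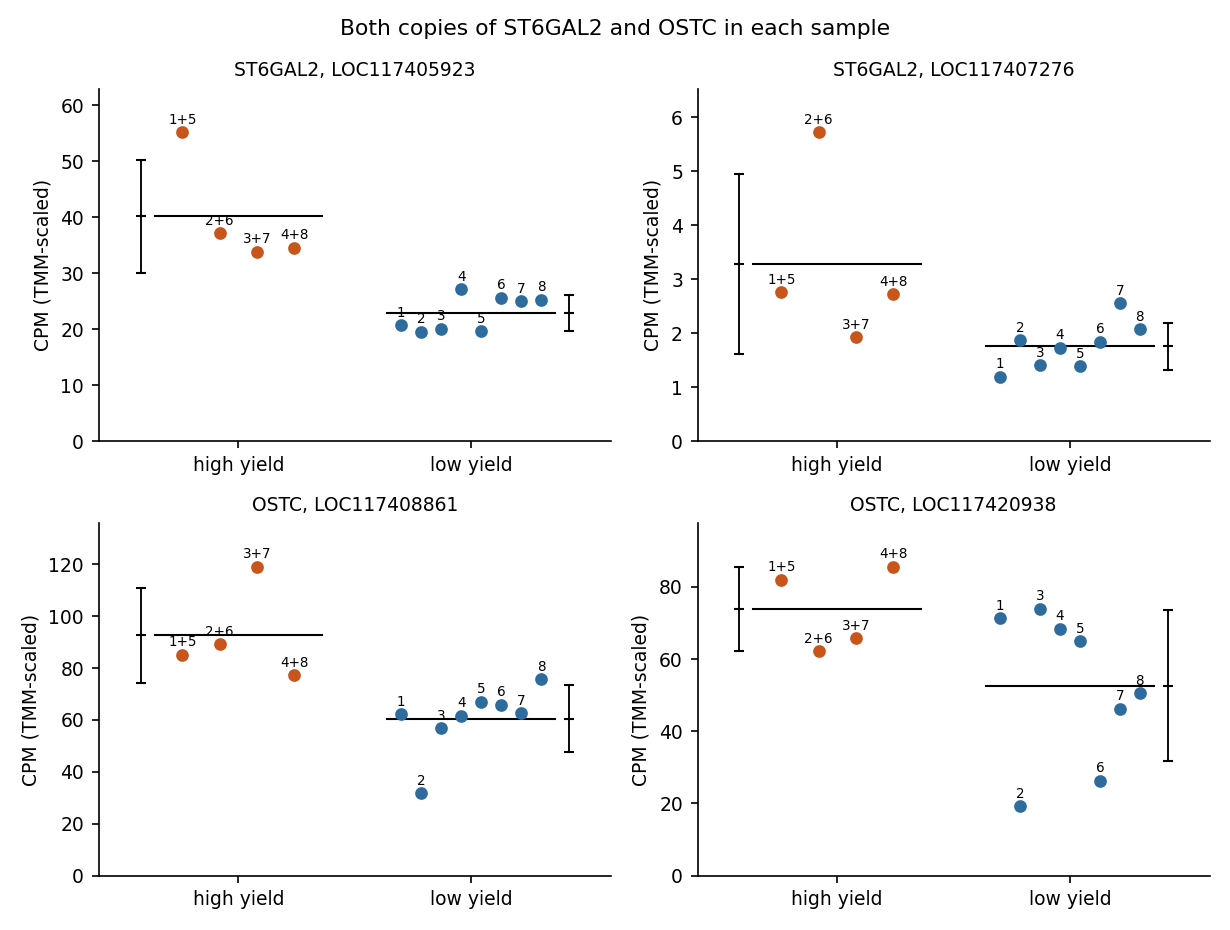
CPM (TMM-scaled) of both copies of ST6GAL2 and of OSTC in each high-yield pair (orange, labelled by library numbers) and each low-yield library (blue), with group mean (line) and SD (bar). In the left panels all 4 high-yield pairs lie above the low-yield libraries, and in the right panels the groups overlap.

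The rest of the oligosaccharyltransferase, whose subunits are described under other names, held no called row. Of 19 tested rows 0 had an unadjusted p under 0.05, 12 were positive and the median log2 fold change was 0.27. Both rows of the catalytic subunit STT3A were negative, at -0.38 (LOC117397241, unadjusted p = 0.067) and -0.28 (LOC117397284). Both rows of the structural subunit DAD1 were positive, at 0.52 (LOC117398335) and 0.37 (LOC131709705).

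Other steps of the dolichol-linked oligosaccharide gave 4 higher and 0 lower of 22 tested rows at an unadjusted p under 0.05, which 5.18% and 3.35% of all genes were, with a median of 0.27. ALG5 (LOC117405512), which makes the dolichol-linked glucose donor, stood at 46.2, 53.0, 21.7 and 17.5 CPM in high-yield pairs, against 12.2 to 25.1 CPM in low-yield libraries (log2 fold change 1.21, SE 0.30, unadjusted p = 0.00121). Pairs 1+5 and 2+6 were high and pairs 3+7 and 4+8 lay within the low-yield range. The more abundant ALG5 row (LOC117972681) had 0.46 (SE 0.34, unadjusted p = 0.194), at 71.3 CPM in high-yield pairs and 51.8 CPM in low-yield libraries. One of 2 rows of each subunit of the enzyme that makes the dolichol chain was among the 4. For NUS1 this row had 0.75 (LOC117410503, unadjusted p = 0.0175) and the other 0.41 (nus1, unadjusted p = 0.139). For DHDDS it had 0.46 (LOC117413167, unadjusted p = 0.0353), and the other, LOC117413949, had -0.06 (unadjusted p = 0.825) at 42.1 CPM in high-yield pairs and 43.9 CPM in low-yield libraries. The fourth was alg10, which adds the last glucose, at 0.88 (unadjusted p = 0.04). It stood at 12.8, 12.3, 2.37 and 7.34 CPM in high-yield pairs, against 3.44 to 8.01 CPM in low-yield libraries. Only pairs 1+5 and 2+6 were above that range, and pair 3+7 was below it. The other ALG10 rows had 0.34 (LOC117419433, unadjusted p = 0.393) and 0.44 (LOC117419566, unadjusted p = 0.313).

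Among the mannosyltransferases the 4 rows annotated as ALG9, which adds mannoses to the dolichol-linked oligosaccharide, gave both signs. LOC117397312 stood at 108, 138, 76.7 and 80.7 CPM in the high-yield pairs, against 34 to 93.4 CPM (median 74.1) in low-yield libraries (log2 fold change 0.53, SE 0.25, unadjusted p = 0.0481). LOC117397360 stood at 4.41, 4.92, 14.1 and 9.70 CPM in high-yield pairs, against 10.7 to 18.3 CPM (median 16.7) in low-yield libraries (log2 fold change -0.87, SE 0.32, unadjusted p = 0.0177). Pair 2+6 was the highest sample in the first of these rows, and only pair 3+7 lay within the low-yield range in the other.

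These opposite rows are neighbours. LOC117397360 and LOC117397312 lie 537 bases apart on one sequence and in the same orientation, and the other ALG9 rows, LOC131707304 and LOC117397098, lie 722 bases apart on another. The second set repeated the signs, with -0.58 (SE 0.29) for LOC131707304 and 0.31 (SE 0.23) for LOC117397098, at unadjusted p of 0.0673 and 0.199. Summed over both neighbours, the counts were 109 CPM in high-yield pairs and 85.0 CPM in low-yield libraries at the first place, and 65.6 CPM in high-yield pairs and 58.4 CPM in low-yield libraries at the second. Whether the neighbouring rows are parts of 1 gene was not tested.

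**Figure D3:**
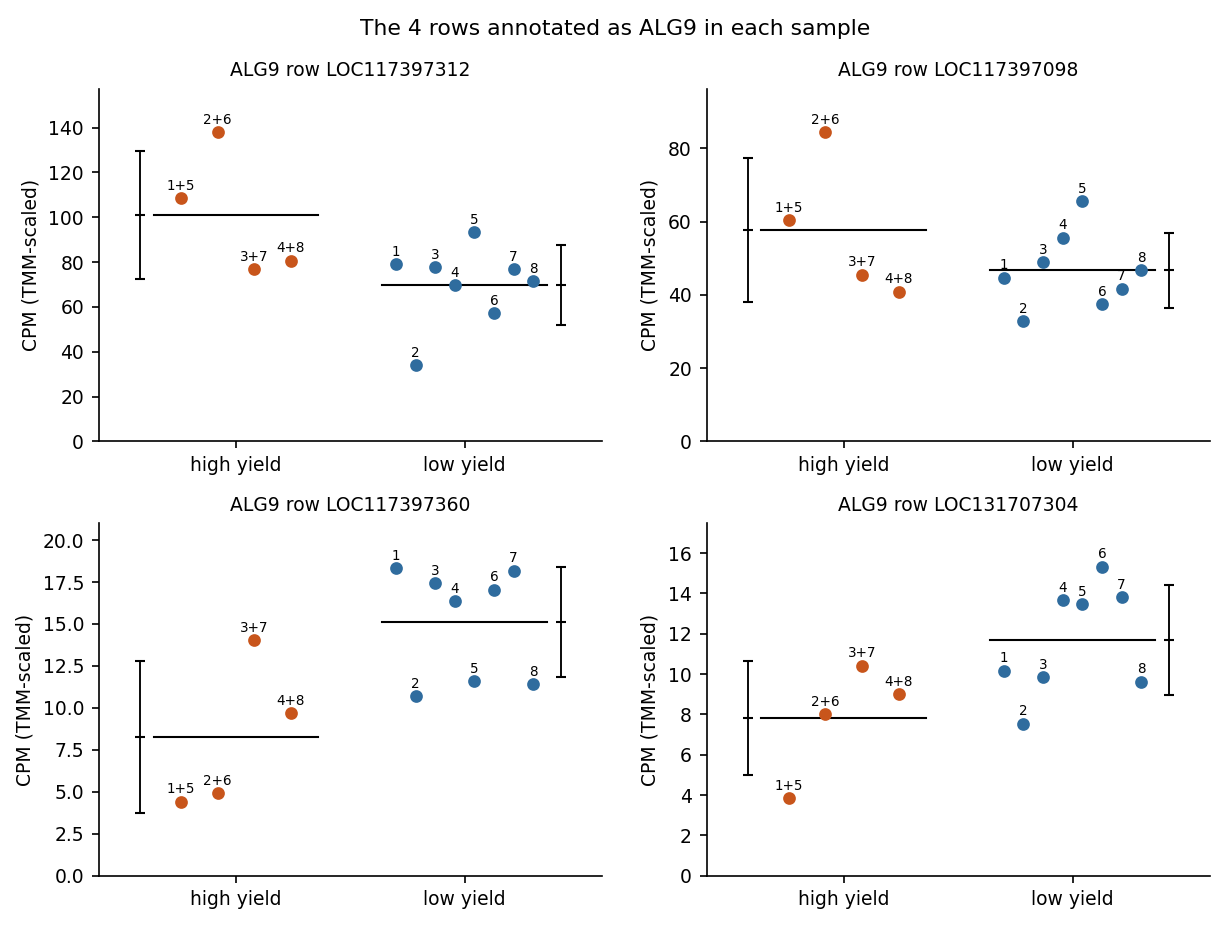
CPM (TMM-scaled) of the 4 rows annotated as ALG9 in each high-yield pair (orange) and low-yield library (blue), with group mean and SD. The upper panels have positive and the lower panels negative log2 fold changes, and among the high-yield pairs 1+5 and 2+6 are the highest in the upper and the lowest in the lower panels.

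ALG3 and DPM1 had unadjusted p above 0.05. The 2 rows of ALG3, which adds the first lumenal mannose, had -0.43 (LOC117423052, unadjusted p = 0.104) and -0.35 (alg3, unadjusted p = 0.0699). The alg3 row stood at 23.0, 23.6, 24.3 and 27.9 CPM in high-yield pairs, against 23.1 to 37.0 CPM in low-yield libraries. DPM1 had 0.37 (SE 0.35) for LOC117431356 and 0.27 (SE 0.38) for LOC117427020.

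Galactosyltransferases were represented at the lowest p by B4GALT7, which adds the first galactose of the linker that carries chondroitin and heparan sulfate chains. Its row LOC117412848 stood at 12.7, 13.5, 3.74 and 4.03 CPM in the high-yield pairs, against 2.56 to 5.38 CPM (median 3.98) in low-yield libraries. Pairs 1+5 and 2+6 were high, and pairs 3+7 and 4+8 lay within the low-yield range. The log2 fold change was 1.09 (SE 0.38, unadjusted p = 0.0115), and it was 0.84 without pair 1+5 and 0.78 without pair 2+6, with unadjusted p of 0.0632 and 0.0767. The other B4GALT7 row (LOC117431368) stood at 7.97, 9.03, 4.76 and 5.87 CPM in high-yield pairs, against 2.11 to 5.74 CPM in low-yield libraries (0.83, SE 0.31, unadjusted p = 0.0189), again with the same pairs highest. C1GALT1, which makes the core of mucin-type O-glycans, had the third such row (LOC117962369), with 38.6, 56.0, 22.4 and 21.6 CPM in high-yield pairs, against 17.9 to 31.0 CPM in low-yield libraries (0.68, SE 0.26, unadjusted p = 0.0188). A more abundant C1GALT1 row (LOC117433417) had -0.07.

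B3GALT1 (LOC117404554), a beta-1,3-galactosyltransferase, was the lower row of this class at an unadjusted p of 0.0224, but at CPM near 0. It stood at 0.0527, 0.0469, 0 and 0 CPM in high-yield pairs, against 0 to 2.10 CPM in low-yield libraries, where 2 libraries were also at 0. Its fitted log2 fold change of -4.32 (SE 1.68) depends on the prior count and is not a measure of size.

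N-acetylglucosaminyltransferases at an unadjusted p under 0.05 covered N-glycan, O-mannose, GPI anchor and chain-extending enzymes. MGAT1 (LOC117433963), which opens the way from high-mannose to hybrid and complex N-glycans, stood at 48.8, 56.6, 49.0 and 31.2 CPM in high-yield pairs, against 23.7 to 46.5 CPM in low-yield libraries (0.47, SE 0.21, unadjusted p = 0.0406). Pair 4+8 lay within the low-yield range, and the second MGAT1 row (LOC131696469) had 0.37 (SE 0.24). B3GNT2 (LOC117410464), which extends lactosamine chains, stood at 39.1, 33.95, 7.04 and 12.3 CPM in high-yield pairs, against 6.35 to 19.5 CPM in low-yield libraries (1.03, SE 0.42, unadjusted p = 0.0268). A more abundant B3GNT2 row (LOC117402572) had 0.19 (SE 0.27, unadjusted p = 0.497), at 58.7 CPM in high-yield pairs and 51.5 CPM in low-yield libraries. PIGY (LOC117435142), a subunit of the complex that starts GPI anchors, stood at 64.2, 63.5, 28 and 39.7 CPM in high-yield pairs, against 8.75 to 55.9 CPM in low-yield libraries (0.85, SE 0.40, unadjusted p = 0.0489). POMGNT2 (LOC117399418), which extends the O-mannose glycan of dystroglycan, stood at 11, 7.28, 5.02 and 9.58 CPM in high-yield pairs, against 2.05 to 6.89 CPM in low-yield libraries (0.73, SE 0.33, unadjusted p = 0.0432). Pairs 3+7 and 4+8 lay within the low-yield range for B3GNT2 (LOC117410464) and PIGY, and pair 3+7 did for POMGNT2.

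Mucin-type initiation is the work of the polypeptide N-acetylgalactosaminyltransferases, and none of these rows had an unadjusted p under 0.05. The rows of the N-acetylgalactosaminyltransferase class that did were both B3GALNT1, which makes globoside lipids, LOC131740038 with 9.99, 9.61, 2.36 and 1.34 CPM in high-yield pairs, against 0.707 to 6.65 CPM in low-yield libraries (1.57, SE 0.64, unadjusted p = 0.0288), and LOC131740037 with 5.18, 4.36, 0.455 and 0.489 CPM in high-yield pairs, against 0.154 to 2.51 CPM in low-yield libraries (1.91, SE 0.79, unadjusted p = 0.0307). Low-yield 5 was the highest low-yield library in both. The most abundant B3GALNT1 row (LOC117423202) had 0.36 and an unadjusted p of 0.309.

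The remaining sialyltransferase at an unadjusted p under 0.05 was the minor row of ST3GAL4, which adds sialic acid in alpha-2,3 linkage to galactose. LOC117416617 stood at 5.80, 7.21, 1.40 and 3.77 CPM in high-yield pairs, against 0.984 to 2.89 CPM in low-yield libraries (1.30, SE 0.45, unadjusted p = 0.0119). The more abundant ST3GAL4 row (LOC117412657) had 0.21 and an unadjusted p of 0.53. The 2 most abundant ST6GALNAC3 rows, with the highest sialyltransferase FPKM among rows of at least 0.3 kb, had 0.07 (SE 0.22) for LOC117421946 and 0.27 (SE 0.19) for LOC117396755. ST8SIA6 (LOC117433373), an alpha-2,8-sialyltransferase, had the smallest p among lower sialyltransferases, 0.13, at 0.158, 0.394, 5.09 and 1.32 CPM in high-yield pairs, against 0.843 to 13.4 CPM in low-yield libraries.

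Fucosyltransferases held 0 rows at an unadjusted p under 0.05. FUT8, which adds the core fucose of N-glycans, was low throughout, at 0.834 to 1.69 CPM in high-yield pairs and 1.28 to 3.94 CPM in low-yield libraries for LOC117422535 (-0.86, SE 0.46, unadjusted p = 0.0812). FUT10 (LOC131718564) stood at 14.1, 17.6, 26.6 and 24.7 CPM in high-yield pairs, against 7.62 to 22.0 CPM in low-yield libraries (0.47, SE 0.29, unadjusted p = 0.126). FUT11 (LOC131701754) had 31.5, 45.9, 86.2 and 71.2 CPM in high-yield pairs, against 23.1 to 73.7 CPM in low-yield libraries (0.05, SE 0.32). The main row of POFUT1 (LOC131698600), which puts O-fucose on Notch-type repeats, had 15.9, 19.6, 53.2 and 34.4 CPM in high-yield pairs, against 12.6 to 42.9 CPM in low-yield libraries (0.03, SE 0.37). In FUT10, FUT11 and POFUT1, pairs 3+7 and 4+8 were above pairs 1+5 and 2+6.

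The high-yield pairs differed widely in some rows, no more often than among all genes. Of 223 tested rows, 21 had a 4-fold or larger range among the 4 pairs at CPM + 0.5 (9.42%, against 14.6% of all genes). In 15 of the 21 the highest pairs were 1+5 and 2+6, in 4 they were 3+7 and 4+8, and in 2 the order was another. Over all genes the counts were 2035, 1417 and 933 of 4385. Of the 14 rows higher at an unadjusted p under 0.05, 11 also had pairs 1+5 and 2+6 highest, and the number of higher rows was 5 without pair 1+5 (2.18% of all genes) and 2 without pair 2+6 (2.40% of all genes). Of the 16 rows higher or lower at that threshold, 6 kept it without pair 1+5 and 3 without pair 2+6. Low-yield 5 was the highest low-yield library in 11 of the 15 rows and the lowest in 3 of the 4. The split was chosen from these same values and is a description. The count for low-yield 5 and that of 11 among the 14 higher rows were not made over all genes. Neither is read as particular to these rows.

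The 2 rows of GALNT15, a polypeptide N-acetylgalactosaminyltransferase, showed the split in opposite directions. LOC117399665 stood at 5.27, 1.57, 48.9 and 26.2 CPM in high-yield pairs, against 76.2, 24.4, 43.7, 114, 6.80, 81.7, 68.8 and 49.0 CPM in low-yield libraries 1 to 8 (log2 fold change -1.50, SE 0.79, unadjusted p = 0.0795). LOC117435437 stood at 6.06, 5.47, 0.180 and 0.767 CPM in high-yield pairs, against 0 CPM in 6 low-yield libraries, 0.348 CPM in low-yield 6 and 3.35 CPM in low-yield 5. Pairs 1+5 and 2+6 and low-yield 5 were therefore the samples with the least of one row and the most of the other. Further rows of this kind were mgat5, an antenna-branching enzyme, at 15, 14.2, 3.25 and 3.01 CPM in high-yield pairs with 14.3 CPM in low-yield 5, and ST6GAL1 (LOC117422944) in the other direction.

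**Figure D4:**
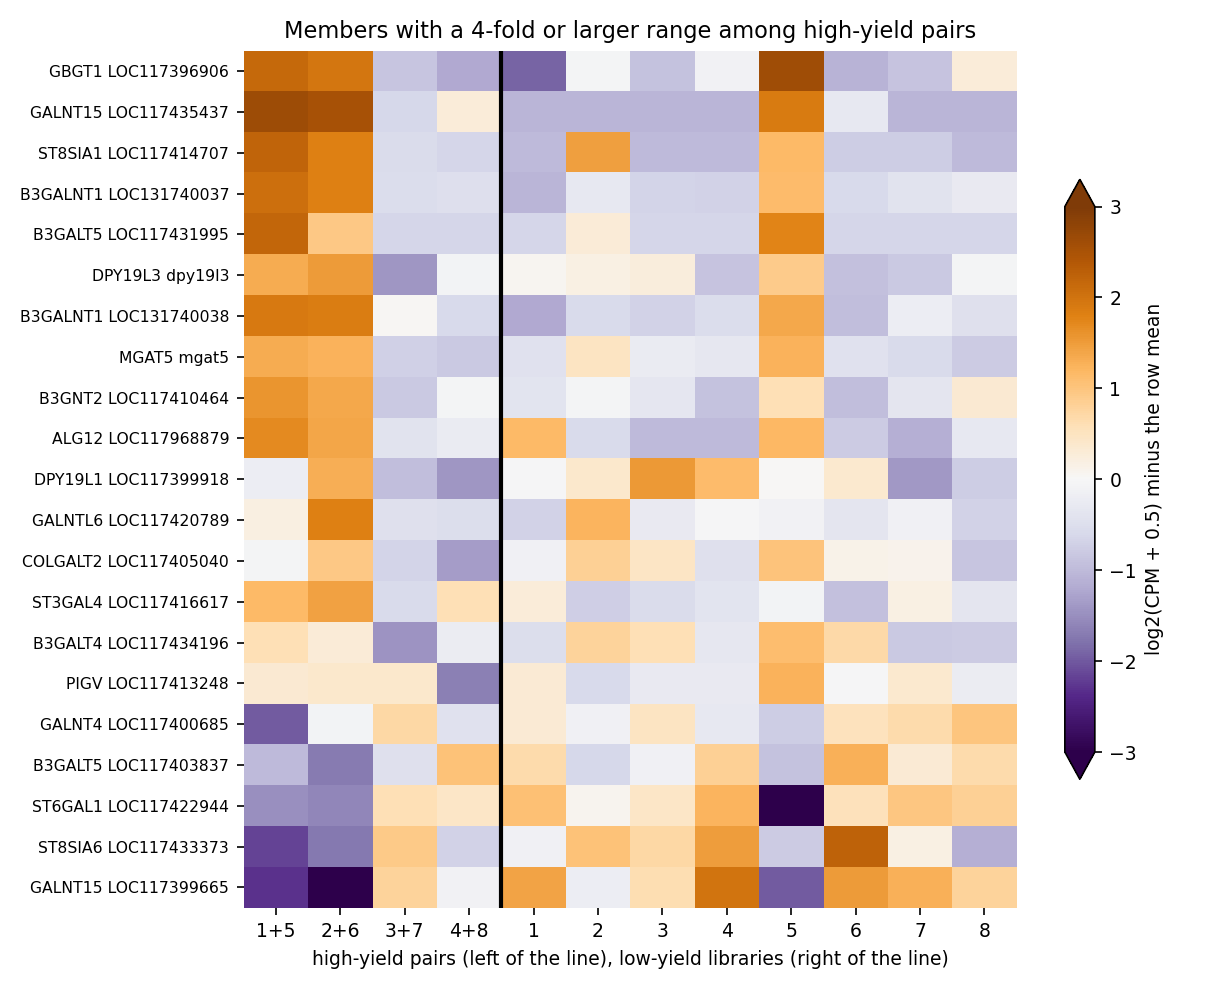
Log2(CPM + 0.5) minus its row mean of the 21 glycosyltransferase rows with a 4-fold or larger range among high-yield pairs, in the 4 pairs (left of the line) and the 8 low-yield libraries (right of it). Orange marks values above the row mean, and low-yield 5 is at the same end of the low-yield libraries as pairs 1+5 and 2+6 in 11 of the 15 rows in which these pairs are highest. The same count was not made over all genes.

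OGT, the enzyme that puts single N-acetylglucosamine on nuclear and cytosolic proteins, was highest in low-yield 2 and 5. Both libraries stood at least 2-fold above every other low-yield library, at CPM + 0.5, in 4.04% of tested glycosyltransferase rows, against 5.12% of all genes. Row LOC117412666 stood at 23.3, 24.7, 22.6 and 28.4 CPM in high-yield pairs, against 81.6 CPM in low-yield 2, 74.7 CPM in low-yield 5 and 17.0 to 26.9 CPM among the remaining low-yield samples. The other row (LOC117963250) repeated it, with 25.1, 23.3, 19.8 and 21.9 CPM in high-yield pairs, against 82.1 CPM in low-yield 2, 86.8 CPM in low-yield 5 and 15.7 to 23.7 CPM elsewhere. The log2 fold changes were -0.54 (SE 0.44, unadjusted p = 0.246) and -0.66 (SE 0.51, unadjusted p = 0.213), and without low-yield 2 and 5 they were 0.19 and 0.22. Leukocyte markers summed to 8.27 to 19.5 CPM in high-yield pairs, against 107 CPM in low-yield 2, 110 CPM in low-yield 5 and 5.50 to 24.4 CPM elsewhere, with 7 of 8 genes matched and none at 0. The part of these and of the other somatic markers in the OGT values was not tested.

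**Figure D5:**
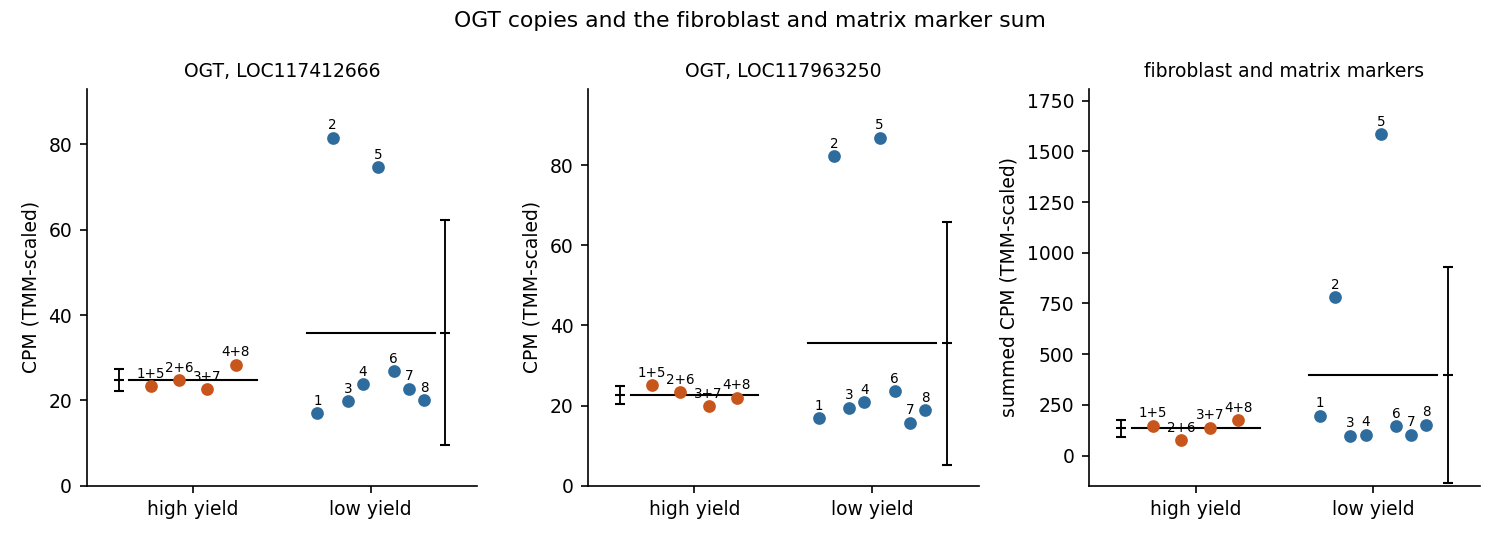
CPM (TMM-scaled) of both OGT rows and summed CPM of 9 fibroblast and matrix marker genes in each high-yield pair (orange) and low-yield library (blue), with group mean and SD. Low-yield 2 and 5 lie above all other samples in each panel.

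Some faint sialyltransferases were also highest in these libraries. In 13 of 31 tested sialyltransferase rows (41.9%) low-yield 2 and 5 were the 2 highest low-yield libraries. This held for 19.4% of all genes and 13.9% of the tested glycosyltransferases. All 13 averaged under 1 CPM, from 0.272 to 0.959 CPM, while the share of all genes was taken over tested genes of every level. Low-yield 2 and 5 also had counts in the most genes, 36856 and 34696, against at most 32977 elsewhere. Only 6 of the 13 pass the filter on low counts without these libraries, so the count depends on which rows the filter admits and is a description. ST3GAL5 (LOC117420817), which makes the ganglioside GM3, stood at 0.0702, 0.901, 0.264 and 0.678 CPM in high-yield pairs, against 4.25 CPM in low-yield 2, 2.49 CPM in low-yield 5 and 0.0553 to 0.738 CPM elsewhere. The class was picked out from 7 after its values were seen, and the part of the marker sums in it was not tested.

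Sturgeons carry many duplicated genes, and 73 of the 113 families had exactly 2 rows, all 73 on different sequences. Of these, 46 had implied lengths of at least 0.3 kb in both rows and at least 1 FPKM in the higher one. The copy with the higher FPKM held 80% or more of the summed FPKM in 24 of the 46 and 90% or more in 10. It held under 60% in 5 and led in all 16 libraries in 39. FPKM divides by length, and implied lengths could differ between copies, so these shares need not hold in CPM. In MGAT4A (0.637 and 3.49 kb) the copy with 83.3% of the FPKM had 52.8 CPM in high-yield pairs, against 58.2 CPM for the other. POFUT1 (LOC131698600) held 96.4% of the summed FPKM of its family, from 91.9% to 97.9% in single libraries, and DPM1 (LOC117431356) held 93.2%. In CPM of the high-yield pairs, POFUT1 had 30.8 against 8.06 in its other copy (0.852 and 5.46 kb). DPM1 had 95.8 against 11.3 CPM there. Evenly shared families were OSTC (LOC117408861, 54.8%), MGAT1 (LOC117433963, 56.7%) and B4GALT7 (LOC117431368, 52.9%), and in B4GALT7 the share ran from 37.5% to 82.6%. In 51 of the 65 families with both copies tested, the fold changes had the same sign. Counting may have shared reads between near-identical copies, so the division between them is uncertain.

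Sugar supply and trimming were described from lists of other genes. Counts are again at an unadjusted p under 0.05, at which 5.18% of all genes were higher and 3.35% lower. Sialic acid supply and removal gave 3 higher and 0 lower of 14 tested rows. NANP (nanp), which completes free sialic acid, stood at 40.6, 26.7, 27.8 and 25.7 CPM in high-yield pairs, against 7.47 to 27.3 CPM in low-yield libraries (0.83, SE 0.29, unadjusted p = 0.0132). Both rows of NEU3, a sialidase acting on gangliosides, were the others, with 1.03 (LOC117972683) and 0.74 (LOC117405498). LOC117972683 stood at 18.0, 14.7, 4.26 and 4.01 CPM in high-yield pairs, against 2.98 to 7.38 CPM in low-yield libraries. LOC117405498 stood at 14.1, 16.3, 6.94 and 5.46 CPM in high-yield pairs, against 4.30 to 11.3 CPM in low-yield libraries. Pairs 1+5 and 2+6 were above, and pairs 3+7 and 4+8 within, the low-yield range in both. N-glycan trimming gave 2 higher and 2 lower of 23, with MANEA (LOC117410572), the Golgi endomannosidase, at 1.96 (unadjusted p = 0.00524) and glucosidase II alpha (GANAB, LOC117968522) at -0.60 (unadjusted p = 0.0242). The others were the Golgi mannosidases MAN1A2 (LOC117406610, 0.80) and MAN1A1 (LOC117413200, -1.86). This MAN1A2 row had 69.6, 49.5, 24.5 and 33.8 CPM in high-yield pairs, against 17.7 to 39.9 CPM in low-yield libraries. Pairs 3+7 and 4+8 thus lay within the low-yield range. This MAN1A1 row rests on few counts, at a mean of 0.448 CPM in high-yield pairs and 1.63 CPM in low-yield libraries. In the low-yield libraries its median was 0.975 CPM and its highest value 4.44 CPM. Other rows matched to MAN1A2 included LOC117405132 at -0.14, LOC117405570 at 0.11 and LOC117406740 at 1.89 (SE 1.25). Rows with the symbols trim45 and vtcn1 were also matched to MAN1A2, by protein name, and are part of the trimming list. The other GANAB rows had -0.41 (LOC117398606, unadjusted p = 0.115) and 0.23 (LOC117968521, unadjusted p = 0.754). The other MANEA row (LOC117403064) was not among those under 0.05. Fucose supply gave 1 higher of 10, the GDP-fucose transporter slc35c1 (1.09), UDP-sugar supply 1 lower of 32, the UDP-N-acetylglucosamine-forming UAP1 (LOC117416626, -0.79), and mannose supply 0 of 9 in either direction.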

How the data were processed

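Ovary RNA was measured in 16 libraries. Adapters were trimmed with cutadapt 1.9, per the submitters' processing notes, and the aligner, counting program, genome build and annotation are not named in any source used here. The authors deposited, per the file headers, counts per gene and FPKM per gene for each library. No coordinates or sequences are printed.

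Near-identical high-yield libraries were found from Spearman's rho of log2 CPM and from the median variance of counts around a common level, 4.31 to 5.73 times Poisson within pairs and at least 22.4 times elsewhere, over genes with at least 40 counts in the 2 libraries together. Each of these pairs was summed. The counts were filtered with filterByExpr, scaled with TMM and tested with edgeR 4.0.16 (quasi-likelihood F test, two-sided, Benjamini-Hochberg over all tested genes, threshold 0.05) in R 4.3.3. SEs are those implied by the F statistic. CPM, TMM and all tests were computed here from the deposited counts. Alternatives were DESeq2 1.42.0, limma 3.58.1 on log2(FPKM + 1) with a mean of at least 1 FPKM, 16 separate libraries, median-of-ratios scaling, no filter, omission of each pair or low-yield library, omission of low-yield 2 and 5, and the replicate number as a block. The edgeR and DESeq2 steps were also run on simulated counts. These were drawn without the split between high-yield pairs or the marker differences of low-yield 2 and 5, so that run does not bear on them.

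Rows were assigned to a class by the keyword ending last in the leading description entry, and to a family by protein name. In 4 rows (acmsd, nipsnap3a, sdhaf3, st3gal7) the symbol names another protein than the description. Lists of other genes and markers were matched by symbol or protein name, so some of their rows carry another symbol, such as trim45 and vtcn1 under MAN1A2. The members, lists and the rule for named genes were chosen with earlier results of these data known. That rule takes, per class, the 2 tested rows with the highest FPKM and the smallest p in each direction, any called row and ST6GAL2. Other rows at an unadjusted p under 0.05, the rows with a 4-fold range, OGT and the implied lengths (median over libraries with at least 20 counts) were described after their values were seen.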

Additional observations from a re-analysis of the deposited data

Results flagged for a closer look

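Dixon's ratio was computed on log2(CPM + 0.5) in each group of the 24 genes named by rule, 48 groups in all, and chance flags about 1 in 20 groups. In 7 groups a single sample stood apart. Low-yield 2 was the lowest low-yield library for ST6GALNAC3 (LOC117396755, 76.2 CPM, others from 120 CPM) and for OSTC (LOC117408861, 31.8 CPM, others from 56.8 CPM), and the highest for GCNT4 (LOC117403656), a branching enzyme of O-glycans, at 7.25 CPM with the others at most 0.779 CPM. Low-yield 5 was the highest for B3GALNT1 (LOC131740038, 6.65 CPM, others at most 1.93 CPM), low-yield 6 for B4GALT3 (LOC131707059, 45.8 CPM, others at most 24.3 CPM) and low-yield 3 for B3GALT1 (LOC117404554, 2.10 CPM, others at most 0.59 CPM). Pair 4+8 was the lowest high-yield pair for PIGV (LOC117413991, 4.40 CPM, others from 13.5 CPM).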

How the results depend on the processing

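All genes called at an adjusted p under 0.05 were 0 with summed pairs, 16 over 16 libraries, 123 with DESeq2 and 1801 with DESeq2 over 16 libraries, and the glycosyltransferases among them were 0, 0, 1 and 7. The 7 were both ST6GAL2 rows, OSTC (LOC117408861), B4GALT7 (LOC117431368) and ST3GAL4 (LOC117416617), all higher, and ALG9 (LOC117397360) and alg3, both lower. Glycosyltransferases higher at an unadjusted p under 0.05 were 14 with summed pairs, 25 with DESeq2 over 16 libraries and 7 with limma. Those lower were 2, against 11 over 16 libraries, 6 with DESeq2, 13 with DESeq2 over 16 libraries and 4 with limma. They were 11 of 266 with no filter and 12 of 204 with the replicate block, for which no share of all genes was computed. Without low-yield 2 and 5 they were 7 of 207 (3.38%, against 4.35% of all genes). Leaving out each pair or low-yield library in turn gave 2 to 16 higher and 1 to 6 lower rows, with medians from -0.045 to 0.052. Higher rows were 2 of 227 without pair 2+6 and 5 of 227 without pair 1+5, against 2.40% and 2.18% of all genes. They were 8 of 222 without low-yield 3 and 9 of 213 without low-yield 2, against 4.02% and 4.62% of all genes. Without pair 3+7 they were 16 of 226 and without low-yield 5 16 of 216, against 6.43% and 7.73% of all genes. For the 1 to 6 lower rows of the fits that left out 1 pair or library, no share of all genes was computed. The median log2 fold change of 0.02 was -0.057 with DESeq2, -0.074 with DESeq2 over 16 libraries and -0.037 with no filter. The cause of these changes was not tested.

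Of 473 values of the 24 genes under alternatives, 18 changed sign, all in 4 genes. PIGV (LOC117413991, 0.04) gave -0.0026 with DESeq2 over 16 libraries, -0.082 with limma and -0.075 with the replicate block, and -0.12 to 0.33 when samples were left out. FUT11 (LOC131701754, 0.05) gave -0.0068 with limma and -0.17 without low-yield 2 and 5, and -0.19 to 0.26 when samples were left out. ST6GALNAC3 (LOC117421946, 0.07) gave -0.076 without low-yield 2 and 5, and -0.025 to 0.13 when samples were left out, and MGAT2 (LOC117416573, 0.16) gave -0.0032 without low-yield 2 and 5. The replicate numbers were checked as a pairing. Same-numbered libraries had correlations of deviations from -0.17 to 0.40, and 3 of 8 high-yield libraries correlated best with their own number. Near-identical high-yield libraries carry different numbers, so the check cannot decide whether the numbers mark a pairing. The fit with the replicate block gave 0 of 204 glycosyltransferases called, 20 higher and 12 lower at an unadjusted p under 0.05 and a median of 0.06. No share of all genes at that threshold was computed for this fit. Rows under 1 CPM rest on few counts.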
